A study of Mus musculus with 19 samples.

Results

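Dazl, Sohlh2 and Stra8 are 3 regulators of germ cell development, and their rows were taken by symbol from a table of 12942 genes in 19 RNA-seq libraries of male mouse embryonic stem cells (ESCs). The cells belong to 3 ESC lines, called J-34, J-35 and, in part of the groups, J-37, and were moved from passage 4 into different media. After 6 passages, at passage 10, there were 2 libraries each in S/L, 2i/L, a2i/L and PKCi/L, and after 3 passages, at passage 7, there were 2 in S/L+PD. After 16 passages, at passage 20, there were 3 libraries each in S/L and 2i/L, and 3 more came from cells kept in 2i/L for 16 passages and put back into S/L for 3, to passage 23. Every medium was used with feeder layers of mouse fibroblasts (MEFs), and cells were sorted for the surface marker SSEA1 before RNA extraction, so the control medium shares the feeders and the sort with all others. No genotype difference between the groups is given. The labels do not spell out the media. In mouse ESC work S/L is serum with the cytokine LIF, 2i/L combines inhibitors of Mek and Gsk3 with LIF, a2i/L uses an inhibitor of Src in place of the one against Mek, PKCi/L an inhibitor of protein kinase C, and PD is a Mek inhibitor. For the second library of PKCi/L and of S/L+PD the labels disagree on the line, J-37 by title but J-35 by the generation protocol. Lines are named here by title, so by title both media set 1 J-37 library against a J-35 library of S/L.

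Dazl encodes an RNA-binding protein of germ cells that promotes translation and is needed for primordial germ cells to become competent for gametogenesis. Sohlh2 encodes a basic helix-loop-helix transcription factor of differentiating spermatogonia and of early oocytes, where it acts together with Sohlh1. Stra8, "stimulated by retinoic acid", encodes a protein of premeiotic germ cells that is required for entry into meiosis. In somatic and pluripotent cells germline genes of this kind are held down by DNA methylation of CG-rich promoters and by a Polycomb complex that holds MGA, MAX, E2F6 and PCGF6, and Stra8 in addition answers to retinoic acid.

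The rows give transcript levels per gene and do not show where transcription started. The promoter windows are shown because CG dinucleotides are where methylation can act. Each runs from 250 bases before to 50 bases after the start of the gene in RefSeq on GRCm38.p6, 5′ to 3′ on the gene's strand, with CG dinucleotides in capitals. All 3 genes were matched. The Dazl window lies at chr17:50293571-50293870 on the minus strand, that of Sohlh2 at chr3:55181794-55182093 on the plus strand and that of Stra8 at chr6:34920698-34920997 on the plus strand.
Dazl: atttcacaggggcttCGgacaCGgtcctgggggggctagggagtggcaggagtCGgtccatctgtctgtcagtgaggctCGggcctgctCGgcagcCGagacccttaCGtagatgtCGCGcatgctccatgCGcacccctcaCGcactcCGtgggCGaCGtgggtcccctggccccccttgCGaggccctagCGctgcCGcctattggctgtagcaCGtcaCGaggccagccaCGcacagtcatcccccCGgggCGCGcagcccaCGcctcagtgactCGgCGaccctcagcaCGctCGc
Sohlh2: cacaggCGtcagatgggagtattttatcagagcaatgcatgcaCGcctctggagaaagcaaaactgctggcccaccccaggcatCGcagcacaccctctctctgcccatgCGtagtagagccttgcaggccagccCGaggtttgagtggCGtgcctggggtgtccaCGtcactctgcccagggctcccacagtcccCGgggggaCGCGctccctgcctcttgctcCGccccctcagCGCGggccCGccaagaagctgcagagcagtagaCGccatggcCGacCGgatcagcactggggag
Stra8: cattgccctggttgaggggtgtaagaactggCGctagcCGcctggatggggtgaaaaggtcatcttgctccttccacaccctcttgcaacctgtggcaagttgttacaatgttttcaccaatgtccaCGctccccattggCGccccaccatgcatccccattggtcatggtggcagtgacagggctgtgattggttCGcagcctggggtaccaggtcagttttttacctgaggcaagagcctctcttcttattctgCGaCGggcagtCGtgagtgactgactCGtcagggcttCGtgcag
The Dazl window held 28 CG dinucleotides at 68.7% GC, the Sohlh2 window 17 at 64.7% and the Stra8 window 10 at 55.7%. Among 32817 mouse promoter windows of the same length, the median was 7, and 85.8% held fewer than Dazl, 68.6% fewer than Sohlh2 and 56.6% fewer than Stra8. The ratio of observed to expected CG was 0.80 for Dazl, 0.54 for Sohlh2 and 0.43 for Stra8. CACGTG, the E-box that MAX and MGA can bind, and GGCGGGA, an E2F core, were searched on both strands, were in none of the 3 windows, and were in 7.15% and 11.3% of all windows. No direct repeat of the retinoic acid receptor half-sites AGGTCA or GGTTCA with 2 or 5 bases between was in them either, as in nearly all windows (0.177% and 0.0183% of all windows held one). Single AGGTCA half-sites, searched after that, were in 16.3% of all windows, and the Stra8 window held them at 2 places, starting at -194 and -38 from the start of the gene.

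Libraries sequenced at passage 20 or 23 differed as a set from those at passage 7 or 10. Expression is given in CPM, the counts scaled to a fixed total for each library, and over the table it summed to 421426 to 465897 in the 10 earlier libraries but to 292986 to 396883 in the 9 later ones. The median log2 change over all genes between S/L at passage 20 and S/L at passage 10 was -0.52, so a level set across the earlier and later libraries carries this shift. Scaling the libraries by the trimmed mean of M values (TMM) removes it, and is named below where it alters a call. Where a depth could be read from the values, it was 33.9 to 57.1 M reads. Of 9 ESC markers 8 were in the table. They summed to 2759 to 3475 CPM in the 10 earlier libraries and to 1507 to 2123 CPM in the 9 later ones, with no overlap. CPM is not corrected for length, so the levels below are compared between libraries and not between the genes.

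Dazl was detected in all 19 libraries, from 3.71 to 274 CPM. It measured 274 CPM in J-34 and 219.9 CPM in J-35 in 2i/L at passage 10, against 14.7 and 15.8 CPM in S/L at that passage. In 2i/L at passage 20 it measured 66.6 (J-34), 81.9 (J-35) and 109 CPM (J-37), against 7.85, 12.3 and 10.7 CPM in S/L. The lowest library in either 2i/L group thus lay far above the highest in S/L. S/L+PD gave 53.0 CPM (J-34) and 68.2 CPM (J-37), and a2i/L gave 19.9 CPM (J-34) and 33.3 CPM (J-35). Below the S/L range of passage 10 lay PKCi/L with 4.64 (J-34) and 3.71 CPM (J-37), and cells returned to S/L held 6.46 (J-34), 7.58 (J-35) and 3.84 CPM (J-37). By group mean the order ran from 2i/L at passage 10 (247 ± 38.4 CPM, SD, n = 2) through 2i/L at passage 20 (85.7 ± 21.3, n = 3), S/L+PD (60.6 ± 10.8, n = 2) and a2i/L (26.6 ± 9.52, n = 2). It went on through S/L at passage 10 (15.3 ± 0.792, n = 2), S/L at passage 20 (10.3 ± 2.26, n = 3) and the return (5.96 ± 1.92, n = 3) to PKCi/L (4.18 ± 0.658, n = 2). The highest group mean was 59.2 times the lowest. Of the neighbours in this order, 2i/L at passage 20 and S/L+PD (adjusted p = 0.0604) and the return and PKCi/L (adjusted p = 0.0948) did not differ beyond their spread in limma, a linear model fitted to all genes. With TMM scaling S/L at passage 20 against S/L at passage 10 did not differ beyond its spread either (-0.03, adjusted p = 0.911). Steps between groups that are not compared again below were not run with TMM scaling.

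Sohlh2, the transcription factor gene, was also detected in all 19 libraries, from 5.49 to 69.6 CPM. It measured 69.6 (J-34) and 64.3 CPM (J-35) in 2i/L at passage 10, against 13.9 and 12.1 CPM in S/L. At passage 20 the relation was the opposite, with 10.4, 11.1 and 11.1 CPM in 2i/L and 16.0, 15.2 and 16.9 CPM in S/L for J-34, J-35 and J-37. The 2i/L libraries were thus the higher ones only at passage 10. S/L+PD gave 28.8 (J-34) and 36.5 CPM (J-37), and a2i/L gave 22.6 (J-34) and 40.3 CPM (J-35). PKCi/L gave 5.49 (J-34) and 6.82 CPM (J-37), and the return gave 8.97 (J-34), 9.66 (J-35) and 6.78 CPM (J-37), all below every S/L library. The group means ran from 66.9 ± 3.75 CPM in 2i/L at passage 10 through 32.6 ± 5.43 in S/L+PD and 31.4 ± 12.5 in a2i/L (n = 2 each) to 16.1 ± 0.835 in S/L at passage 20 (n = 3). Lower down followed S/L at passage 10 (13.0 ± 1.28, n = 2), 2i/L at passage 20 (10.9 ± 0.402, n = 3), the return (8.47 ± 1.5, n = 3) and PKCi/L (6.16 ± 0.940, n = 2). Neighbours differed in limma, without TMM scaling, only at the first step, between a2i/L and S/L at passage 20, and at the last step. With TMM scaling S/L at passage 20 also differed from S/L at passage 10 (0.84, adjusted p = 0.000476). The highest group mean was 10.9 times the lowest.

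Stra8, the meiotic entry gene, ranged from 0.32 to 22.2 CPM and was above 1 CPM in 15 of 19 libraries. It was highest in a2i/L, with 16.4 CPM in J-34 and 22.2 CPM in J-35. 2i/L at passage 10 gave 10.9 (J-34) and 7.45 CPM (J-35), and S/L gave 3.75 and 3.64 CPM. At passage 20 the media overlapped, with 4.76, 3.79 and 4.64 CPM in 2i/L and 5.26, 3.33 and 4.57 CPM in S/L for J-34, J-35 and J-37. The return gave 3.26, 2.49 and 2.40 CPM in the same order of lines. Under 1 CPM lay the 4 libraries of PKCi/L, at 0.59 (J-34) and 0.76 CPM (J-37), and of S/L+PD, at 0.32 (J-34) and 0.68 CPM (J-37). From the depths read, the S/L+PD values rest on about 11 and 28 reads and the PKCi/L values on about 25 and 28, which limits their precision. The group means ran from 19.3 ± 4.04 CPM in a2i/L and 9.19 ± 2.45 in 2i/L at passage 10 (n = 2 each) to 4.40 ± 0.529 and 4.39 ± 0.978 in 2i/L and S/L at passage 20 (n = 3 each). S/L at passage 10 (3.70 ± 0.0778, n = 2) and the return (2.72 ± 0.473, n = 3) followed, and PKCi/L (0.675 ± 0.120) and S/L+PD (0.5 ± 0.255, n = 2 each) came last. The first group stood 38.6 times above the last. Neighbours differed in limma between a2i/L and 2i/L at passage 10 (adjusted p = 0.000395), between the latter and 2i/L at passage 20 (adjusted p = 0.000243), and between the return and PKCi/L (adjusted p = 5.62e-07). The steps among 2i/L at passage 20, S/L at either passage and the return missed the threshold, as did that from PKCi/L to S/L+PD (adjusted p = 0.393). With TMM scaling S/L at passage 20 differed from S/L at passage 10 (0.69, adjusted p = 0.00342 in limma).

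**Figure D1:**
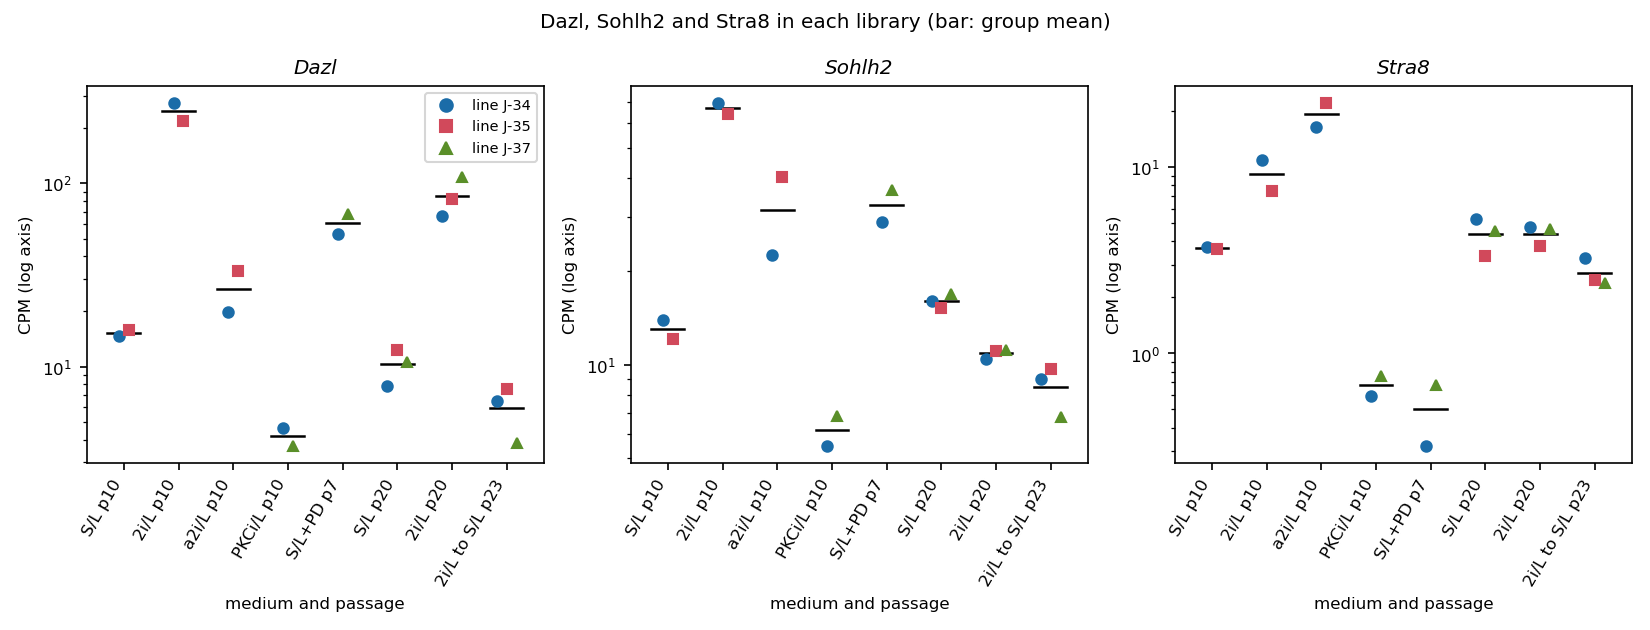
CPM on a log axis for Dazl, Sohlh2 and Stra8 in each of the 19 libraries by medium and passage, with the marker showing the ESC line by title and the bar the group mean. Dazl and Sohlh2 are highest in 2i/L at passage 10 (274 and 69.6 CPM in J-34), whereas Stra8 is highest in a2i/L (22.2 CPM in J-35) and under 1 CPM in PKCi/L and S/L+PD.

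After 6 passages in 2i/L all 3 genes were higher than in S/L. Changes are differences of log2(CPM + 0.5), each followed by its standard error (SE) in limma, and the added 0.5 makes the change of a low gene look smaller. A gene rose or fell where its p-value adjusted over all 12942 genes was under 0.05. Dazl rose by 3.97 ± 0.23 (adjusted p = 4.07e-16, n = 2 and 2), Sohlh2 by 2.32 ± 0.19 (adjusted p = 2.11e-12) and Stra8 by 1.18 ± 0.23 (adjusted p = 5.84e-05). Of all genes, 22.7% were higher and 17.5% lower by the same rule, and the median change was 0.04. In a population of cells, a change in the number of cells with the transcript and a change in the amount per cell cannot be told apart.

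S/L+PD adds the Mek inhibitor to serum and LIF, and here the genes parted. Dazl rose by 1.94 ± 0.23 (adjusted p = 1.86e-08) and Sohlh2 by 1.29 ± 0.19 (adjusted p = 1.26e-06), while Stra8 fell by 2.09 on the log2 scale (SE 0.23, adjusted p = 1.94e-09). In that comparison 16.4% of all genes were higher and 19.3% lower. Medium, 3 passages and, by title, the line of the second library differ together and cannot be told apart. Set against 2i/L at passage 10, S/L+PD was lower for Dazl (-2.02 ± 0.23), Sohlh2 (-1.03 ± 0.19) and Stra8 (-3.28 ± 0.23), where 20.3% of all genes were lower.

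In a2i/L, which pairs Gsk3 inhibition with a Src inhibitor, all 3 rose against S/L, in the reverse order of size to 2i/L. Stra8 rose by 2.22 ± 0.23 (adjusted p = 1.09e-09), Sohlh2 by 1.19 ± 0.19 (adjusted p = 9.34e-06) and Dazl by 0.74 ± 0.23 (adjusted p = 0.0162), where 10.7% of all genes were higher and 17.3% lower. The J-35 library was the higher one for each gene. Without it the Dazl change was 0.37 (adjusted p = 0.386) and that of Sohlh2 0.78 (adjusted p = 0.00761). Dazl also missed the threshold without the J-34 (0.69, adjusted p = 0.0987) or the J-35 library of S/L (0.79, adjusted p = 0.0535). Directly against 2i/L, a2i/L was lower for Dazl (-3.23 ± 0.23, adjusted p = 1.76e-13) and for Sohlh2 (-1.14 ± 0.19, adjusted p = 1.13e-05) and higher for Stra8 (1.04 ± 0.23, adjusted p = 0.000395). There 23.9% of all genes were lower and 11.8% higher. Without the J-34 library of a2i/L the Sohlh2 difference was -0.72 (adjusted p = 0.0086).

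PKCi/L was the one medium of passage 10 in which all 3 genes fell against S/L. Stra8 fell by 1.84 (SE 0.23, adjusted p = 5.89e-08), Dazl fell by 1.76 (SE 0.23, adjusted p = 2.43e-07) and Sohlh2 fell by 1.02 (SE 0.19, adjusted p = 7.45e-05), where 23.5% of all genes were lower and 5.80% higher. The median over all genes was -0.17 and all 3 calls held with TMM scaling (-1.67 for Stra8, -1.57 for Dazl and -0.84 for Sohlh2). Against 2i/L the differences were -5.73 ± 0.23 for Dazl, -3.35 ± 0.19 for Sohlh2 and -3.02 ± 0.23 for Stra8, with 33.2% of all genes lower. a2i/L exceeded PKCi/L by 4.06 ± 0.23 for Stra8, 2.50 ± 0.23 for Dazl and 2.21 ± 0.19 for Sohlh2, with 21.5% of all genes higher. By title the second library of PKCi/L is J-37 and that of the other media of passage 10 J-35.

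At passage 20, after 16 passages in 2i/L, Dazl alone of the 3 was above S/L. It rose by 2.99 ± 0.19 (adjusted p = 1.42e-15, n = 3 and 3), Sohlh2 fell by 0.54 (SE 0.16, adjusted p = 0.00318) and Stra8 differed by 0.02 ± 0.19 (adjusted p = 0.94). In this comparison 50.0% of all genes were higher and 12.3% lower, around a median of 0.33, so that Sohlh2 went against the general shift. With TMM scaling Dazl stood at 2.63, Sohlh2 at -0.90 (adjusted p = 4.15e-05) and Stra8 at -0.32 (adjusted p = 0.0959). Leaving out 1 library at a time moved Stra8 between -0.15 and 0.15. The test of the difference itself, the change with 2i/L at passage 20 minus that at passage 10, gave -0.97 ± 0.30 for Dazl (adjusted p = 0.0109), -2.86 ± 0.25 for Sohlh2 (adjusted p = 6.32e-11) and -1.17 ± 0.29 for Stra8 (adjusted p = 0.00199). For 7.10% of all genes this difference was lower by the same rule, and the median of all genes was 0.29. The Dazl difference missed the threshold without the J-34 library of 2i/L at passage 10 (-0.81, adjusted p = 0.0735) or the J-35 library of S/L at passage 20 (-0.84, adjusted p = 0.059).

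**Figure D2:**
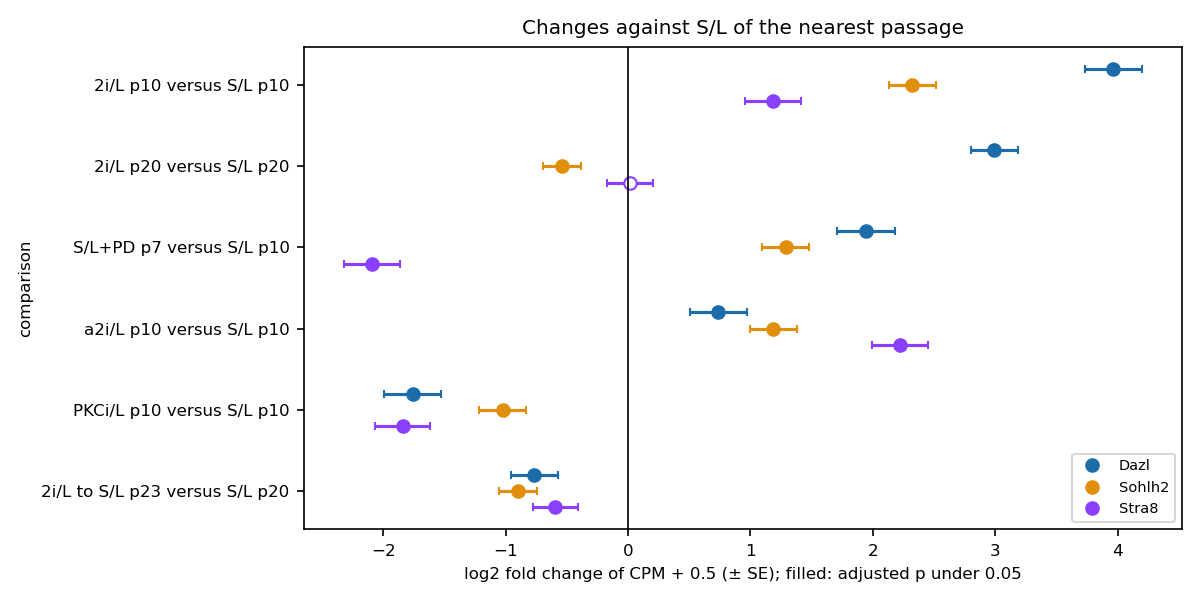
Differences of log2(CPM + 0.5) with bars of 1 SE for the 3 genes in 6 comparisons with S/L, where filled points passed an adjusted p of 0.05. Dazl lies right of 0 in 2i/L at both passages (3.97 and 2.99), Sohlh2 changes side between them (2.32 and -0.54), and Stra8 lies at 2.22 in a2i/L and at -2.09 in S/L+PD.

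Cells put back from 2i/L into S/L held less of all 3 transcripts than cells kept in S/L throughout. Sohlh2 fell by 0.90 (SE 0.16, adjusted p = 2.07e-05), Dazl fell by 0.76 (SE 0.19, adjusted p = 0.0016) and Stra8 fell by 0.59 (SE 0.19, adjusted p = 0.0105), where 6.63% of all genes were lower, 32.7% were higher and the median of all genes was 0.20. With TMM scaling the values were -1.14, -1.01 and -0.82. Stra8 missed the threshold without the J-34 library of S/L (-0.46, adjusted p = 0.0742) or the J-37 library of the return (-0.52, adjusted p = 0.051), and without the latter Dazl differed by -0.50 (adjusted p = 0.0482). The return is at passage 23 and the S/L group at passage 20, so medium history and 3 passages cannot be told apart. Against 2i/L at passage 20, the return was lower for Dazl (-3.76 ± 0.19, adjusted p = 3.66e-18) and Stra8 (-0.61 ± 0.19, adjusted p = 0.00688), with 30.3% of all genes lower. Sohlh2 missed the threshold (-0.36 ± 0.16, adjusted p = 0.0611). With the ESC line as a block in the model, paired by title, Sohlh2 passed (adjusted p = 0.0495), as it did with the line of the generation label (adjusted p = 0.0461).

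A further pair of comparisons crosses the earlier and later libraries. In 2i/L, passage 20 against passage 10 gave -2.57 ± 0.18 for Sohlh2, -1.54 ± 0.21 for Dazl and -0.97 ± 0.21 for Stra8, with 37.2% of all genes lower, and each was called with TMM scaling too (-2.36, -1.34 and -0.77). In S/L, Dazl differed by -0.57 ± 0.21 (adjusted p = 0.019), Sohlh2 by 0.30 ± 0.18 (adjusted p = 0.131) and Stra8 by 0.20 ± 0.21 (adjusted p = 0.4), with 60.3% of all genes lower. With TMM scaling the calls in S/L changed, to -0.03 for Dazl (adjusted p = 0.911), 0.84 for Sohlh2 (adjusted p = 0.000476) and 0.69 for Stra8 (adjusted p = 0.00342). Without TMM scaling Dazl also missed the threshold when the J-34 library of S/L at passage 20 (-0.40, adjusted p = 0.121), or the J-34 (-0.62, adjusted p = 0.0508) or J-35 library of S/L at passage 10 (-0.52, adjusted p = 0.105), was left out.

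Among the 19 libraries the 3 genes followed each other only in part. Pearson's r of log2(CPM + 0.5) was 0.73 between Dazl and Sohlh2, 0.44 between Sohlh2 and Stra8 and 0.33 between Dazl and Stra8, given as descriptions over libraries that share lines and media. Dazl and Sohlh2 had r = 0.96 over the 10 libraries of passages 7 and 10 and 0.11 over the 9 later ones. The genes most like Dazl, of 7333 compared, were A4galt (r = 0.97), a glycosyltransferase gene, Stab2 (0.96), Crxos1 (0.96) and Ism2 (0.96), beside a row that bears a date in place of a symbol. A4galt ran from 12.7 CPM in PKCi/L to 82.9 CPM in 2i/L at passage 10, and Crxos1 from 0.150 to 15.0 CPM in the same groups. Sohlh2 was most like Slc16a9 (0.94), a transporter gene, Scml2 (0.92), a Polycomb protein gene of the male germline, Gstm2 (0.90), Gstm3 (0.90) and 4831426I19Rik (0.90). Scml2 measured 9.49 ± 0.148 CPM in 2i/L against 1.09 ± 0.134 CPM in S/L at passage 10, and 1.81 ± 0.548 against 1.86 ± 0.373 CPM at passage 20. Among the genes most like Stra8 were Stx17 (0.89), Lonrf3 (0.86), Kif19a (0.85) and Stat5b (0.83). Over the 9 later libraries alone, r with Sohlh2 was 0.82 for Slc16a9, 0.76 for Scml2, 0.56 for Gstm2, 0.34 for 4831426I19Rik and 0.20 for Gstm3. In the same libraries r with Stra8 was 0.77 to 0.82 for Stx17, Lonrf3 and Stat5b and -0.15 for Kif19a, and r with Dazl was 0.96 to 0.98 for the 4 genes named.

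**Figure D3:**
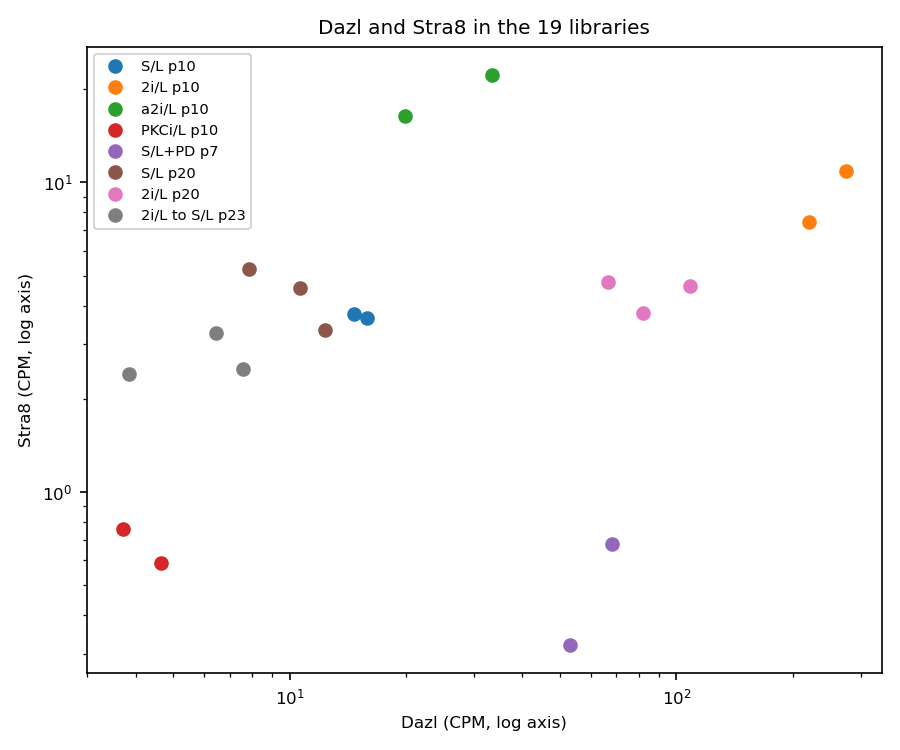
Stra8 against Dazl in CPM, both on log axes, with 1 point for each of the 19 libraries coloured by medium and passage. S/L+PD libraries combine 53.0 and 68.2 CPM of Dazl with 0.32 and 0.68 CPM of Stra8, and a2i/L libraries hold 19.9 and 33.3 CPM of Dazl with 16.4 and 22.2 CPM of Stra8.

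The counts of other germline and regulatory genes that follow stand beside the shares of all genes called higher and lower. Those shares were 22.7% and 17.5% in 2i/L at passage 10, 16.4% and 19.3% in S/L+PD, 10.7% and 17.3% in a2i/L, and 5.80% and 23.5% in PKCi/L. They were 50.0% and 12.3% in 2i/L at passage 20 and 32.7% and 6.63% in the return. Counts of listed genes with TMM scaling belong beside those of all 12942 genes with it. These were 3359 higher and 3032 lower in 2i/L at passage 10, 3034 and 2759 in S/L+PD, and 2423 and 2359 in a2i/L. In PKCi/L they were 2332 and 2413, in 2i/L at passage 20 4176 and 4153, and in the return 2783 and 2957.

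Upstream of these genes, 12 early germline and germ cell RNA-binding genes were measured. In 2i/L at passage 10, 8 rose and 2 fell (median change 0.92, against 0.04 for all genes), and in S/L+PD 7 rose and 2 fell (0.96 against -0.06). Kit, the receptor of stem cell factor, rose from 50.5 to 243 CPM in 2i/L (2.26 ± 0.15) and to 134 CPM in S/L+PD (1.40 ± 0.15). Dppa3, a maternal factor of early germ cells, rose from 4.65 to 43.4 CPM in 2i/L (3.08 ± 0.33) and fell to 0.930 CPM in PKCi/L (-1.86 ± 0.33). Ddx4, an RNA helicase of germ cells often used beside Dazl as a marker, did not follow it. Ddx4 fell from 22.6 CPM in S/L to 8.36 CPM in 2i/L (-1.38 ± 0.19), 5.70 CPM in S/L+PD (-1.90 ± 0.19) and 6.96 CPM in PKCi/L (-1.63 ± 0.19), and measured 25.0 CPM in a2i/L (0.14 ± 0.19, adjusted p = 0.638). In PKCi/L 3 genes of the list rose and 2 fell, in a2i/L 4 and 1, at passage 20 in 2i/L 9 and 1, and in the return 5 and 2. With TMM scaling these became 6 and 2 in PKCi/L, 8 and 3 at passage 20, and 4 and 5 in the return.

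Sohlh1, the partner of Sohlh2, is not among the rows used here. Of 9 measured transcription factors of spermatogonia and oocytes, 2 rose and 1 fell in 2i/L at passage 10 and 3 rose and 2 fell in a2i/L. Dmrt1, which acts in the male germline, measured 40.9 CPM in a2i/L against 11.6 CPM in S/L (1.77 ± 0.26) and fell to 4.33 CPM in S/L+PD (-1.36 ± 0.26) and 6.53 CPM in PKCi/L (-0.87 ± 0.26). Etv5, a factor of spermatogonial self-renewal, rose in 2i/L at passage 10 (1.29 ± 0.15) and at passage 20 (1.29 ± 0.13). In S/L+PD 2 of these factors rose and 3 fell, in PKCi/L 2 and 2, in 2i/L at passage 20 3 and 3, and in the return 2 and 2. With TMM scaling 2 rose and 3 fell in 2i/L at passage 10, 2 and 5 at passage 20, 2 rose and none fell in PKCi/L, and none rose and 2 fell in the return.

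Downstream in germ cells lie genes of meiotic prophase, 27 of which were measured. In 2i/L at passage 10, 3 rose and 9 fell (median -0.13), in S/L+PD 5 and 10 (-0.25), in a2i/L 3 and 6 (-0.18) and in PKCi/L 2 and 12 (-0.49, and 4 and 9 with TMM scaling). Of all genes 17.5%, 19.3%, 17.3% and 23.5% were lower in these media, with medians of 0.04, -0.06, -0.09 and -0.17, so the count in a2i/L lay near the share of all genes. Sycp3, a synaptonemal complex gene, fell in 2i/L from 7.87 to 3.32 CPM (-1.14 ± 0.26) and measured 10.1 CPM in a2i/L (0.34 ± 0.26, adjusted p = 0.344). Rec8, a meiotic cohesin gene, rose in 2i/L from 9.90 to 27.7 CPM at passage 10 (1.44 ± 0.20) and from 3.62 to 14.0 CPM at passage 20 (1.80 ± 0.16). Tex15, a meiotic recombination gene, fell in PKCi/L from 26.4 to 3.88 CPM (-2.63 ± 0.18) and in S/L+PD to 7.21 CPM (-1.82 ± 0.18). At passage 20 in 2i/L 5 of the list rose and 11 fell, and 3 and 19 with TMM scaling. In the return 8 rose and 4 fell, and 5 and 6 with TMM scaling.

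The retinoic acid genes, 15 of them measured, are set beside Stra8, and a link between them was not tested. Their transcript levels are not a measure of retinoic acid signalling. In a2i/L 6 rose and 2 fell, in 2i/L at passage 10 4 and 3, in S/L+PD 4 and 4, in PKCi/L 2 and 5, in 2i/L at passage 20 11 and none (9 and 4 with TMM scaling), and in the return 4 and 2 (2 and 4 with TMM scaling). Of all genes 50.0% were higher at passage 20 and 32.7% in the return, so the 4 of 15 higher in the return were no larger a share than that of all genes. The receptor gene Rarg fell from 48.3 to 5.98 CPM in S/L+PD (-2.91 ± 0.15), to 16.6 CPM in 2i/L (-1.52 ± 0.15) and to 25.3 CPM in a2i/L (-0.92 ± 0.15), and measured 40.7 CPM in PKCi/L (-0.24 ± 0.15, adjusted p = 0.24). Aldh1a3, an enzyme gene of retinoic acid synthesis, rose in 2i/L (2.19 ± 0.25), a2i/L (1.33 ± 0.25) and S/L+PD (1.18 ± 0.25). Cyp26a1, which encodes the enzyme that breaks retinoic acid down, is not among the rows used here.

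The list of 13 genes of the DNA methylation machinery mixes opposed functions. Genes that add or keep methylation stand beside Tet1, Tet2, Tet3, Tdg and Mbd4, which act in its removal or in repair. The counts therefore give no direction of methylation. Of the 13 genes, 10 fell in S/L+PD, 7 in a2i/L and 6 in 2i/L at passage 10, and none rose. Of all genes 19.3%, 17.3% and 17.5% were lower in these media. The median changes were -0.54, -0.70 and -0.31, against -0.06, -0.09 and 0.04 for all genes. The count in S/L+PD was 6 without the J-34 library of S/L or without the J-37 library of S/L+PD. With TMM scaling 2 rose in a2i/L and 1 in 2i/L. Dnmt3b, a de novo methyltransferase gene, fell from 53.8 CPM in S/L to 11.7 CPM in 2i/L (-2.16 ± 0.18), 8.16 CPM in S/L+PD (-2.65 ± 0.18) and 10.9 CPM in a2i/L (-2.26 ± 0.18), while it measured 66.5 CPM in PKCi/L (0.29 ± 0.18, adjusted p = 0.227). Its cofactor gene Dnmt3l fell from 110.3 to 3.84 CPM in 2i/L (-4.66 ± 0.20) and to 28.0 CPM in a2i/L (-1.95 ± 0.20), rose to 165 CPM in PKCi/L (0.58 ± 0.20, adjusted p = 0.0293) and measured 97.9 CPM in S/L+PD (-0.20 ± 0.20, adjusted p = 0.485). Dnmt3a fell in 2i/L (-1.71 ± 0.18), S/L+PD (-2.70 ± 0.18), a2i/L (-1.09 ± 0.18) and PKCi/L (-0.92 ± 0.18). Neither of the maintenance genes passed in 2i/L at passage 10, with 0.16 ± 0.15 for Dnmt1 (adjusted p = 0.421) and 0.04 ± 0.16 for Uhrf1 (adjusted p = 0.882). In S/L+PD both fell (-0.44 ± 0.15 for Dnmt1 and -0.49 ± 0.16 for Uhrf1). At passage 20 in 2i/L both rose (0.54 ± 0.12 and 0.65 ± 0.13), while Dnmt3b (-1.35 ± 0.15), Dnmt3l (-3.18 ± 0.17) and Dnmt3a (-0.50 ± 0.15) fell. Levels of these transcripts are not a measure of methylation at the 3 promoters, which was not analysed here. In PKCi/L 1 of the list rose and 4 fell (4 and 3 with TMM scaling), in 2i/L at passage 20 6 and 4 (6 and 6), and in the return 7 and none (5 and 1). Of the genes of removal or repair, Tet2 fell in S/L+PD (-1.06 ± 0.17) and Tet3 in PKCi/L (-0.95 ± 0.20). Tet3 and Mbd4 rose in 2i/L at passage 20 (1.30 ± 0.17 and 1.32 ± 0.13) and in the return (0.86 ± 0.17 and 0.84 ± 0.13).

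Of 20 repressors of germline genes, 3 rose and 1 fell in 2i/L at passage 10 (median 0.05), none rose and 4 fell in a2i/L (-0.10), and none rose and 2 fell in PKCi/L (-0.07). With TMM scaling these became 5 and 5, 2 and 5, and 2 and 1. In S/L+PD 2 rose and 6 fell (6 and 8 with TMM scaling). Max (0.22 ± 0.17, adjusted p = 0.323), Mga (0.09 ± 0.17, adjusted p = 0.706), E2f6 (0.05 ± 0.16, adjusted p = 0.836) and Pcgf6 (-0.17 ± 0.15, adjusted p = 0.413) did not pass in 2i/L at passage 10. Transcript levels are not a measure of the binding or activity of the Polycomb complex, which was not tested. In S/L+PD Max rose (0.77 ± 0.17) and E2f6 fell (-0.45 ± 0.16). At passage 20 in 2i/L 7 rose and 5 fell, which became 6 and 11 with TMM scaling, and in the return 7 and 2 became 5 and 11. E2f6 fell at passage 20 (-0.56 ± 0.13).

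A list of 21 measured germline genes of other functions, from the piRNA pathway to testis-specific enzymes, is set beside the 3 regulators. It was chosen with earlier results of these data known, so it is not an independent measure. It also holds Zfp42, which is among the ESC markers. In 2i/L at passage 10, 11 rose and 6 fell (median 0.89), and in PKCi/L none rose and 14 fell (-1.24, against -0.17 for all genes). Aurkc, a meiotic kinase gene, rose from 1.70 to 31.2 CPM in 2i/L (3.85 ± 0.23) and to 6.75 CPM in a2i/L (1.67 ± 0.23), and fell to 0.1 CPM in PKCi/L (-1.87 ± 0.23). Fkbp6 rose to 43.3 CPM in 2i/L from 6.68 CPM (2.61 ± 0.28) and fell to 0.515 CPM in PKCi/L (-2.82 ± 0.28). Mael, a piRNA pathway gene, fell in 2i/L from 16.6 to 1.09 CPM (-3.43 ± 0.24) and at passage 20 from 9.29 to 0.640 CPM (-3.10 ± 0.20). In S/L+PD 6 of the list rose and 8 fell, in a2i/L 6 and 2, in 2i/L at passage 20 7 and 6 (7 and 9 with TMM scaling), and in the return 4 and 4 (2 and 9).

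**Figure D4:**
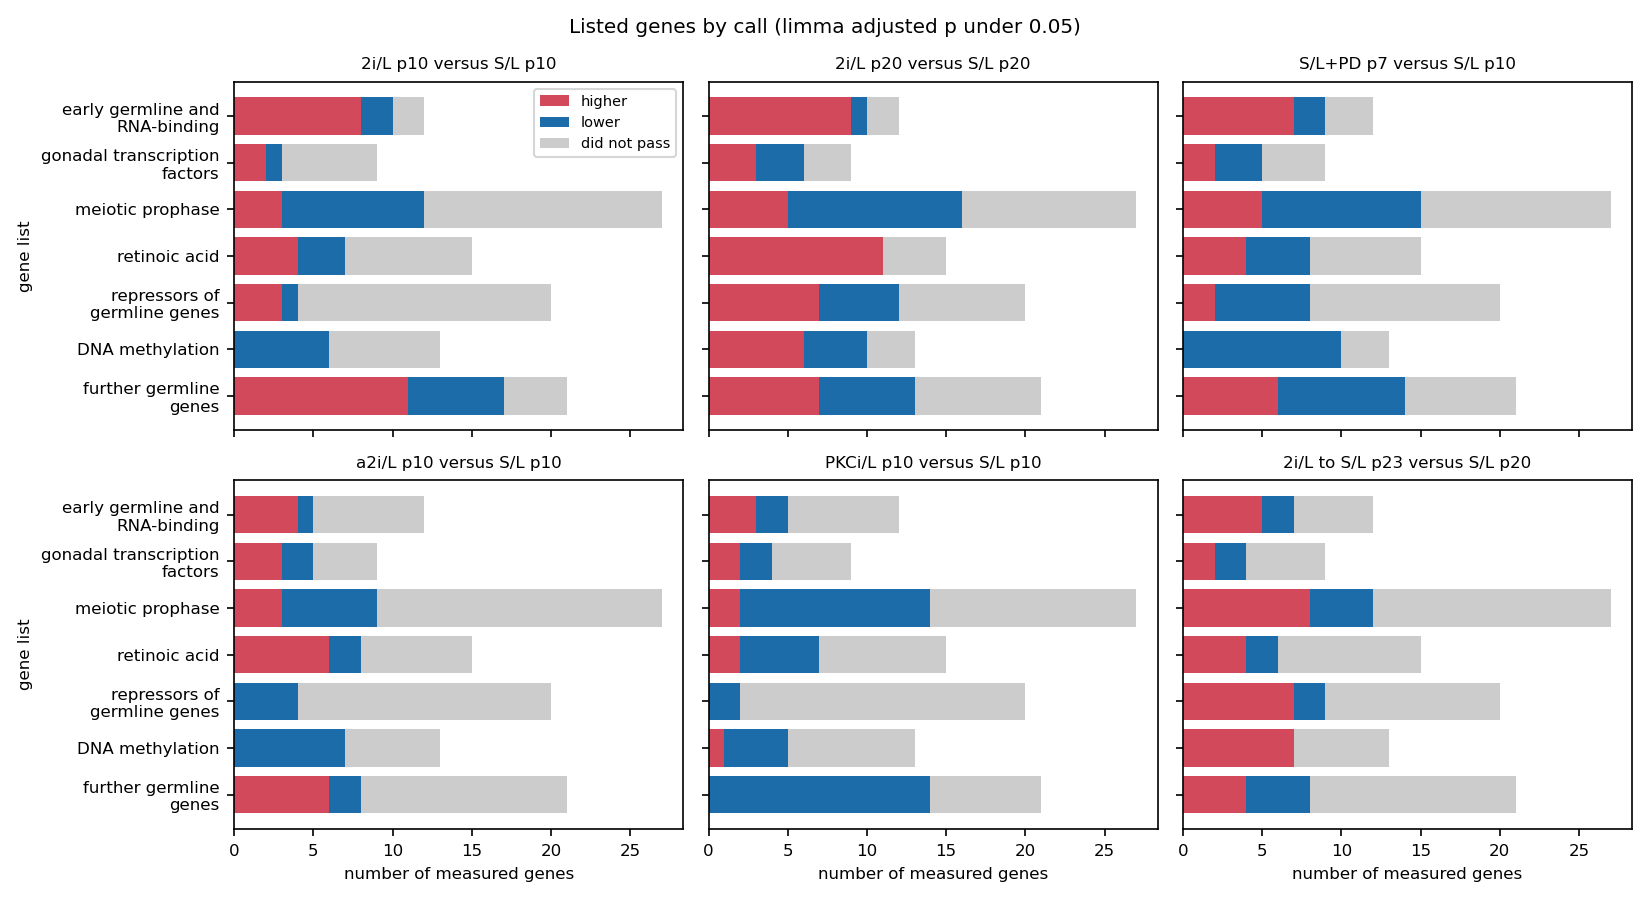
Number of measured genes in 7 lists that were called higher, called lower or did not pass in 6 comparisons with S/L (limma, adjusted p under 0.05). In PKCi/L 14 of 21 further germline genes were lower and none higher. In S/L+PD 10 of 13 DNA methylation genes were lower, a list that includes genes of methylation removal. The lists were chosen with earlier results of these data known.

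Markers of feeder fibroblasts moved with some media, and their part in the results was not tested. Of 15 listed, 14 were measured, and their summed level was 533 to 560 CPM in S/L at passage 10, 1136 to 1318 in 2i/L, 867 to 1101 in a2i/L, 701 to 779 in PKCi/L and 2070 to 2819 in S/L+PD. At passage 20 they summed to 247 to 304 CPM in S/L and 852 to 1061 CPM in 2i/L, and in the return to 156 to 185 CPM. These sums do not follow most of the markers from passage 10 to passage 20. In S/L 11 of the 14 were higher at passage 20 and 2 lower (median 1.29, against -0.52 for all genes). In 2i/L 10 were higher and 1 lower (1.94 against -0.22). Of the 14, 11 rose and 1 fell in 2i/L at passage 10, 11 rose and 2 fell at passage 20, 14 rose in S/L+PD, and 2 rose and 4 fell in each of a2i/L and PKCi/L. In the return none rose and 5 fell (8 with TMM scaling, which gave 2 lower in PKCi/L). Per library, 0 to 2 of the 14 were under 0.1 CPM. Sums in a2i/L and PKCi/L were also above S/L, although the median marker change there was negative. It was -0.35 and -0.19, against -0.09 and -0.17 for all genes. Col1a1, a collagen gene, fell from 2.995 CPM in S/L at passage 10 to 0.915 CPM in a2i/L and 1.355 CPM in PKCi/L. It rose to 19.8 CPM in 2i/L and to 353 CPM in S/L+PD. At passage 20 Col1a1 measured 109 CPM in 2i/L against 7.79 CPM in S/L. Of 6 measured trophoblast markers, 3 rose and 2 fell in 2i/L at passage 10 and in a2i/L, and 3 and 1 did in S/L+PD. They summed to 8.97 to 9.51 CPM in PKCi/L and 31.6 to 32.1 CPM in S/L. Of 6 measured primitive endoderm markers none rose and 3 fell in 2i/L at passage 10, none rose and 5 fell in PKCi/L, and 3 rose and 3 fell in S/L+PD. Of the 8 measured ESC markers 1 rose and 3 fell in 2i/L at passage 10 (2 and 4 with TMM scaling). Pou5f1 fell there from 537 to 323 CPM (-0.73 ± 0.17, adjusted p = 0.000718). In a2i/L 1 ESC marker rose and 2 fell, in PKCi/L 1 and 1, and in S/L+PD 1 and none.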

How the data were processed

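RNA-seq was measured in 19 libraries of mouse ESCs. Per the labels' protocols, ribosomal RNA was depleted and strand-marking paired-end libraries were sequenced on an Illumina HiSeq. Per the submitters' processing notes, the authors used edgeR 3.8.6, HTSeq 0.6.0, STAR 2.3.0, SAMtools 0.1.18.0 and Picard 1.100, with the builds NCBIM37 and mm9. The table deposited by the authors holds linear CPM per gene and library with 2 decimals, and each gene in it exceeds 1 CPM in at least 3 libraries (lowest third-highest value 1.01). Whole reads were not recovered from these values, so no count test was run. A depth was read from the steps between values for 11 libraries.

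Tests used limma 3.58.1 under R 4.3.3, with lmFit and trended eBayes applied to log2(CPM + 0.5) of 19 libraries in 8 groups at once (11 residual degrees of freedom). P-values were 2-sided and adjusted by Benjamini-Hochberg over 12942 genes in each of 14 comparisons. A filter of 1 CPM in 2 libraries removed no gene, and all 3 members passed it. The labels do not say that libraries of a group came from separate derivations beyond their line, so p-values measure the spread between these libraries.

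A line number marks the same ESC line in each group, which pairs the samples by design. In the later libraries the deviations of same-numbered samples from their group means correlated with r from -0.072 to 0.263 (median 0.107, above 0.1 for 5 of 9 pairs). Over the 44 remaining same-numbered pairs the median was 0.018. For pairs of different lines r was -0.199 to 0.264 in the later libraries (median -0.089, above 0.1 for 3 of 18). Over the 86 remaining pairs of different lines the median was -0.01. Deviations cancel out within a group, so these values are not independent. The line as a block was an alternative, as were leaving out each library, no filter, a pseudocount of 0.1 or 1 CPM, and TMM scaling as implemented for this work. Within groups, Pearson's r between libraries was 0.989 to 0.995, and none were identical. Likeness is Pearson's r, computed for genes averaging 1 CPM or more whose group means span 1 or more on the log2 scale.

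The members, the lists and the rule for named genes were chosen with earlier results of these data known. Named genes are the members, up to 4 called genes with the largest change per list and main comparison, a set panel, and the 5 most alike each member. Of 4 marker lists the genes were likewise set, and counts are given with the results. Scripts were tested on simulated data. A gene that the naming rule selected is not reported here.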

Additional observations from a re-analysis of the deposited data

Results flagged for a closer look

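The change with 2i/L against S/L differed between passage 20 and passage 10 for each of the 3 genes in limma's test of that difference (n = 3 libraries a group at passage 20, n = 2 at passage 10). It was -0.97 for Dazl, whose rise was smaller at passage 20 (2.99 against 3.97, adjusted p = 0.0109). For Sohlh2 it was -2.86, with a rise of 2.32 at passage 10 and a fall at passage 20 (-0.54, adjusted p of the difference 6.32e-11). For Stra8 it was -1.17, with a rise of 1.18 at passage 10 and 0.02 at passage 20 (adjusted p = 0.00199). The passages also differ in library set, whose part was not tested. With TMM scaling the differences were -1.30, -3.20 and -1.47.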

How the results depend on the processing

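No replicate block value changed a call of the 3 genes except Sohlh2 in the return against 2i/L (-0.36, adjusted p = 0.0495 with the line of the title and 0.0461 with that of the generation label). With other pseudocounts or no filter, every direction and call of the 3 genes and every gene count (within 1.5 times) held. With TMM scaling, Stra8 in 2i/L at passage 20 turned from 0.02 to -0.32. In S/L at passage 20 against passage 10, Dazl lost its call (-0.035) and Sohlh2 (0.84) and Stra8 (0.69) gained one. Counts of listed genes moved by over 1.5 times in 29 cases with TMM scaling (55 within it), in 96 with 1 library left out (1500 within it), in 5 with the line of the title as block, in 2 with a pseudocount of 0.1 and in 1 with a pseudocount of 1. The cause was not tested.

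Leaving out 1 library at a time gave Dazl in a2i/L 0.372 to 1.103, Dazl in S/L at passage 20 against 10 -0.71 to -0.40, and the Dazl difference between passages -1.16 to -0.81. Sohlh2 in the return against 2i/L ranged from -0.45 to -0.21, and it passed without either a2i/L library (adjusted p = 0.0355 and 0.0362) or the J-35 return library (adjusted p = 0.0341). Stra8 ranged from -0.15 to 0.15 in 2i/L at passage 20, with -0.04 without J-34 and -0.02 without J-37 of 2i/L, and from -0.76 to -0.46 in the return.

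TMM scaling gave 4176 genes higher and 4153 lower for 2i/L at passage 20 (6469 and 1592 without it), 2423 higher for a2i/L (1381), 2332 higher for PKCi/L (750), and 2783 higher and 2957 lower for the return (4230 and 858). It gave 3530 higher for the return against 2i/L, 2744 for a2i/L, 3360 for PKCi/L and 2570 for S/L+PD against 2i/L, and 2570 lower for a2i/L against PKCi/L. It gave 3333 higher and 3550 lower for passage 20 against 10 in S/L, 3127 higher in 2i/L, and 2474 higher and 2655 lower for the difference between passages. The share of calls that were higher moved from 80.3% to 50.1% in 2i/L at passage 20, from 83.1% to 48.5% in the return, from 19.8% to 49.1% in PKCi/L and from 38.2% to 50.7% in a2i/L.

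With 1 library left out, genes called lower ranged from 1601 to 3009 in S/L+PD, 1402 to 2754 in a2i/L, 562 to 1238 in the return, 1670 to 3124 in S/L+PD against 2i/L and 637 to 1582 in a2i/L against PKCi/L. Genes called higher ranged from 862 to 1597 in a2i/L, 443 to 912 in PKCi/L, 982 to 1796 in a2i/L against 2i/L, 1728 to 3202 in a2i/L against PKCi/L and 1164 to 1915 in 2i/L at passage 20 against 10.

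Directions that TMM scaling turned were Dnmt1 in the return (-0.044) and a2i/L (0.076), Uhrf1 (-0.049), Dnmt3b (-0.22) and E2f6 (-0.089) in the return, E2f6 (0.063), Mga (0.13), Pcgf6 (0.095) and Pou5f1 (0.062) in PKCi/L, Mga in a2i/L (0.081) and Pcgf6 in 2i/L at passage 20 (-0.36, adjusted p = 0.000583, the one that passed). The likeness of Kif19a to Stra8 turned to -0.15 in the later libraries. Groups of 2 libraries, and 11 to 28 reads for Stra8 where it was lowest, limit the precision.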
